A study of Mus musculus with 2 samples.

Results

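The 10 genes followed here carry the TGF-beta signal from ligand to nucleus, and were read in cardiac fibroblasts and immune cells after myocardial infarction (MI). They were chosen by name, by a rule that uses no measured value but was written with earlier results of these data known, and are the ligands Tgfb1, Tgfb2 and Tgfb3, the receptors Tgfbr1, Tgfbr2 and Tgfbr3, and the SMAD genes Smad2, Smad3, Smad4 and Smad7. They make up 10 of the 15059 genes in each of 4 deposited fibroblast subcluster tables, and all 10 were present in all 4. A further 18 tables, 1 for each main cell cluster, list only genes that passed limits set by the authors, and 8 of the 10 members appear in at least 1 of them.

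Interstitial cells of the ventricle were captured in droplets with the 10x Chromium system, whose chemistry counts the 3′ end of transcripts, in 2 libraries. The PostnMCM control library came from adult mice with MerCreMer, a Cre recombinase that tamoxifen switches on, expressed from Postn, a gene active in fibroblasts that turn into myofibroblasts after injury. The second library came from mice with the same driver in which Yap1 was floxed on both alleles and Wwtr1, the TAZ gene, on 1, and is called here the library labelled depleted. Both strains also carried the R26-eGFP reporter, both received chow with 0.4 g/kg tamoxifen after coronary ligation, and both were collected at day 6 after MI according to the labels, while the study's methods name a later day. Cre was thus present in both groups, only cells that had expressed Postn could recombine, and 1 allele of Wwtr1 stayed intact in the floxed group. The comparison asks how transcripts differ in myofibroblasts, and in the cells around them, when YAP and TAZ are targeted. Each group held 1 library and the number of hearts in it is not given in the sources used here, so the values carry no replicate error and no test was made.

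TGF-beta ligands are secreted in a latent complex with their own propeptide and a binding protein that anchors them in the matrix. Once freed by integrins or proteases, the ligand binds TGFBR2, which phosphorylates TGFBR1, and TGFBR1 phosphorylates SMAD2 and SMAD3. These join SMAD4 and enter the nucleus, where SMAD7 is among the induced genes and feeds back to block the receptor. In the infarcted heart the pathway is known for driving fibroblasts towards contractile, matrix-producing myofibroblasts, and for restraining inflammatory leukocytes. YAP and TAZ bind DNA through TEAD factors and are known to meet SMAD complexes at shared target genes.

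The promoters of Tgfb1 and Tgfb2 are shown because their shares of cells differed in opposite directions in subclusters 0, 4 and 5, with subcluster 4 holding the lowest and the highest log2 ratio of any member. RefSeq promoters were matched for 5 of the 10 members, with 6 promoters in all since Tgfbr1 has 2. None was matched for Tgfb3, Tgfbr3, Smad2, Smad4 and Smad7. The 250 bases before each RefSeq start were searched on both strands for GGAATG (bound by TEAD factors), CAGAC (bound by SMAD3 and SMAD4) and TGANTCA (bound by AP-1), and on the gene strand for TATAAA (the TATA box). The sequences are credited to RefSeq, in a table on GRCm38.p6, and were placed by exact match in GRCm39 at chr7:25386177-25386389 on the plus strand for Tgfb1 and at chr1:186438295-186438436 on the minus strand for Tgfb2. Only the 213 and 142 bases before the canonical start in GENCODE are printed, which leaves out the last 37 and 108 bases of the searched windows. Capitals mark matches to CAGAC.
Tgfb1: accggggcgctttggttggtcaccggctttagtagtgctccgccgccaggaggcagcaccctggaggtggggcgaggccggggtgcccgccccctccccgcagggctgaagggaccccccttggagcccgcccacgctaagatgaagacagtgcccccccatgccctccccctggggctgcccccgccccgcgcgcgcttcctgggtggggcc
Tgfb2: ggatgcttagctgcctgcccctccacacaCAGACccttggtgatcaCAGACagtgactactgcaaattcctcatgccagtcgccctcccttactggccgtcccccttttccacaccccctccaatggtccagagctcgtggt
The Tgfb2 window held CAGAC at −221 and −204 from the RefSeq start and TATAAA at −31, and no match overlapped another. The Tgfb1 window held none of the 4 motifs. CAGAC was also found once for Tgfbr2, at −160, and in 1 of the Tgfbr1 promoters, at −203. GGAATG and TGANTCA were in none of the 6 promoters. Over all 32851 promoters of this length, 42.2% held CAGAC, 12.6% GGAATG, 6.75% TGANTCA and 7.59% TATAAA. A match of so few letters describes the sequence and does not show a bound site.

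The measure is the share of cells of a cluster with a corrected count above 0, deposited as a fraction for each library and given here as the authors' value in percent. A share says how many cells held a count, not how much each held, and cannot separate fewer transcripts per cell from shallower sequencing. Counts per cell are not given, so the depth behind each share is unknown and no interval or detection limit is given. Cell numbers are not stated either, but the spacing of the deposited values shows how coarse they are, since 1 cell moves a share by about 1 step. The library labelled depleted had only 33, 24, 11 and 22 distinct values in subclusters 0, 3, 4 and 5. Its shares therefore rest on few cells, fewest in subcluster 4. For subclusters 0, 3, 4 and 5 in turn, the smallest step was 3.1, 4.3, 10.0 and 4.7 points in the library labelled depleted and 0.6, 3.3, 2.5 and 4.3 points in the control library. A share is called higher or lower at 1.5-fold or more, among eligible genes, which reach 10% of cells in either library. Median log2 ratios over all eligible genes counted in both libraries were 0.00, -0.02, 0.06 and 0.05 in subclusters 0, 3, 4 and 5.

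The subclusters follow the study's names, with IGF-binding-protein and epicardial-marker fibroblasts in subcluster 0, proliferating myofibroblasts in 3, matrifibrocyte-marker cells in 4 and secretory myofibroblasts with matrix and contractile genes in 5. The study split the fibroblasts further, into subclusters not analysed here, and describes unequal contributions of the genotypes. Of the subclusters analysed here, it describes 0 and 4 as mainly from PostnMCM hearts, and 3 and 5 as holding cells of both genotypes. Of the 7 fibroblast markers, Col1a1, Col1a2, Col3a1 and Dcn were at 100% in both libraries of these 4 subclusters. The other markers varied, with Pdgfra at 38.6%, 66.7%, 85% and 87% of control cells and 71.9%, 87%, 80% and 81% in the library labelled depleted, Lum at 35.9%, 26.7%, 40% and 100% against 34.4%, 47.8%, 40% and 100%, and Tcf21 at 2.1%, 6.7%, 35% and 43.5% against 0%, 8.7%, 20% and 81%. Yap1 was counted in 46.2%, 23.3%, 57.5% and 30.4% of control cells in this order, and in 56.2%, 43.5%, 40% and 47.6% in the library labelled depleted, so it was lower only in subcluster 4. Wwtr1 went from 81.4%, 93.3%, 80% and 100% to 90.6%, 91.3%, 60% and 85.7%. Postn, the Cre driver, was counted in 25.5%, 40%, 10% and 87% of control cells and in 28.1%, 13%, 20% and 100% in the library labelled depleted. Only in subcluster 5 was it thus counted in most cells of both libraries. Transcripts of other cells were also present in these subclusters and are set beside the Tgfb1 values. No cell barcodes are in the tables, so barcodes shared between the libraries were not counted, and no doublet caller is named by the authors.

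Of 12 ligand values, 1 was called higher and 2 lower, against 17.1% higher and 15.8% lower among eligible genes over the 4 subclusters. Tgfb1 (chromosome 7, 25386390 to 25404506, plus strand, GRCm39), the isoform made by leukocytes and platelets as well as by fibroblasts, was counted in 50.3%, 46.7%, 60% and 56.5% of control cells in subclusters 0, 3, 4 and 5. Its shares in the library labelled depleted were 37.5%, 26.1%, 20% and 42.9%. Tgfb1 was thus lower in all 4 subclusters, and the libraries did not overlap, with the lowest control share at 46.7% and the highest of the other library at 42.9%. The difference was 3.0-fold in subcluster 4 and 1.79-fold in subcluster 3, and 1.34-fold and 1.32-fold in subclusters 0 and 5. Of 9806 genes eligible in all 4, 6.59% were lower in all 4 at any size. All 4 shares of the library labelled depleted lay below all 4 control shares in 1.23% of these genes. The Tgfb1 pattern was picked out after its values were seen. In subcluster 4, 7.33% of eligible genes, those at 0 in the library labelled depleted included, were at or below the log2 ratio of -1.59 of Tgfb1.

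Tgfb2 (chromosome 1, 186354985 to 186438294, minus strand), which binds TGFBR2 poorly without the co-receptor TGFBR3 and is prominent in mesenchymal cells, had the opposite direction in 3 subclusters. It was counted in 48.3%, 56.7%, 17.5% and 60.9% of control cells and in 71.9%, 56.5%, 60% and 76.2% of cells labelled depleted. In subcluster 4 this was a 3.43-fold higher share, which 7.31% of eligible genes reached, those at 0 in control cells included, and in subcluster 0 the ratio was 1.49-fold, just under the 1.5-fold size. In subcluster 3 the shares were 0.2 points apart. Subcluster 4 had by far the lowest control share of Tgfb2 among the 4, and the range over subclusters was 43.4 points in control cells and 19.7 points in the library labelled depleted. Tgfb3 (chromosome 12, 86102756 to 86126301, minus strand), the third isoform, was at 71.7%, 73.3%, 52.5% and 87% of control cells in the order above and at 81.2%, 73.9%, 60% and 85.7% in the library labelled depleted. No Tgfb3 share differed by 10 points or by 1.5-fold.

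**Figure D1:**
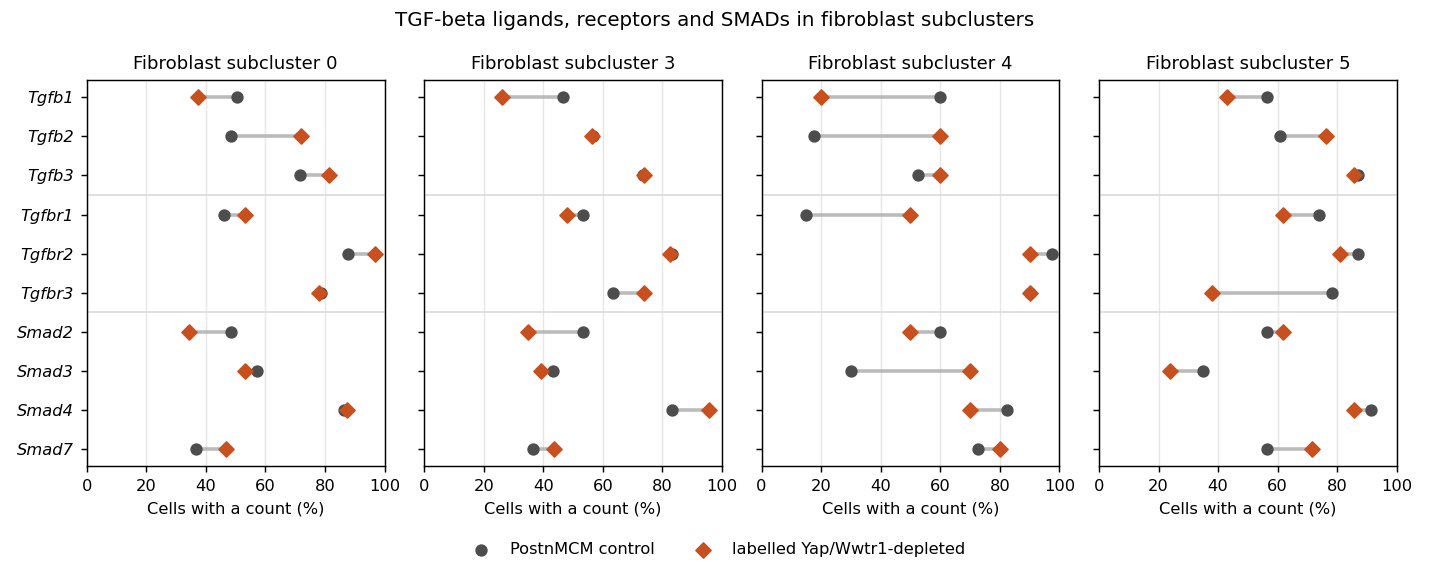
Share of cells with a count (x axis, percent) for the 10 members (rows: ligands, receptors, SMADs) in 4 fibroblast subclusters (panels); circles are the PostnMCM control library, diamonds the library labelled depleted, and a line joins the values of a gene. Tgfb1 lies to the left in the library labelled depleted in all 4 panels, while Tgfb2, Tgfbr1 and Smad3 lie far to the right in subcluster 4, where that library has steps of 10.0 points.

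Tgfbr2 (chromosome 9, 115913361 to 116004800, minus strand), the ligand-binding kinase, was counted in most cells throughout. Its shares were 87.6%, 83.3%, 97.5% and 87% in control cells and 96.9%, 82.6%, 90% and 81% in the library labelled depleted, so no subcluster differed by 10 points. Tgfbr1 (chromosome 4, 47353134 to 47414931, plus strand), the signalling kinase that TGFBR2 activates, varied far more. It was at 46.2%, 53.3%, 15% and 73.9% of control cells and at 53.1%, 47.8%, 50% and 61.9% in the library labelled depleted. Subcluster 4 held the lowest control share, and there the share was 3.33-fold higher in the library labelled depleted, a size that 7.37% of eligible genes reached. The direction was mixed elsewhere, higher in subcluster 0 and lower in subclusters 3 and 5, each by under 1.5-fold. The control range of 58.9 points over the subclusters, the widest of any member, was 14.1 points in the library labelled depleted.

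Tgfbr3 (chromosome 5, 107249402 to 107437623, minus strand) encodes betaglycan, the co-receptor that presents TGF-beta 2 to TGFBR2. It was counted in 78.6%, 63.3%, 90% and 78.3% of control cells and in 78.1%, 73.9%, 90% and 38.1% of cells labelled depleted. The first 3 subclusters stayed within 10.6 points, and subcluster 5, the secretory myofibroblasts, was 2.06-fold lower, with 8.64% of eligible genes at or below its log2 ratio of -1.04. In that subcluster Tgfb2 was counted in more cells of the library labelled depleted, by 15.3 points, while its co-receptor was counted in fewer.

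Of the receptor-activated SMADs, Smad2 (chromosome 18, 76374327 to 76445180, plus strand) was at 48.3%, 53.3%, 60% and 56.5% of control cells in subclusters 0, 3, 4 and 5. In the library labelled depleted it was at 34.4%, 34.8%, 50% and 61.9%. It was lower in 3 of 4 subclusters, by 1.53-fold in subcluster 3 and by 1.40-fold in subcluster 0, and higher in the secretory myofibroblasts. Smad3 (chromosome 9, 63554049 to 63665476, minus strand), the DNA-binding partner that is known to drive matrix genes in fibroblasts, was at 57.2%, 43.3%, 30% and 34.8% of control cells and at 53.1%, 39.1%, 70% and 23.8% in the library labelled depleted. The 2.33-fold higher share in subcluster 4, reached by 10.3% of eligible genes, stood against lower shares in the other 3, of which the 1.46-fold difference in subcluster 5 was the largest.

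Smad4 (chromosome 18, 73769343 to 73836915, minus strand), the common partner of both SMAD branches, was counted in 86.2%, 83.3%, 82.5% and 91.3% of control cells and in 87.5%, 95.7%, 70% and 85.7% in the library labelled depleted, with no 1.5-fold difference. Smad7 (chromosome 18, 75500374 to 75529006, plus strand), the inhibitory SMAD and itself a target of the pathway, was at 36.6%, 36.7%, 72.5% and 56.5% of control cells and at 46.9%, 43.5%, 80% and 71.4% in the library labelled depleted. It was higher in all 4 subclusters, by 6.8 to 14.9 points and never by 1.5-fold. Of the genes eligible in all 4, 7.81% were higher in all 4 at any size. The Smad7 pattern was picked out after its values were seen.

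Over all 40 member values in the 4 subclusters, 18 shares were higher, 21 lower and 1 equal, and 20 differed by less than 10 points. Past 1.5-fold there were 3 higher and 4 lower. In subcluster 0 no member was called in either direction, against 10.3% of eligible genes higher and 11.1% lower. In subcluster 3 none was higher and 2 of 10 were lower, against 13.3% and 17.8%. In subcluster 4 there were 3 of 10 higher and 1 lower, against 23.3% and 18.3%, and in subcluster 5 none higher and 1 lower, against 21.1% and 15.5%. With 10 members a subcluster, these counts lie close to or below the background. A share has a ceiling, however, so members counted in most control cells could not be called higher. This holds in all 4 subclusters for Tgfbr2 and Smad4, whose control shares were at least 83.3% and 82.5%. The background covers all eligible genes and was not matched for control share. All 3 higher calls came from subcluster 4, and without that subcluster none remained.

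**Figure D2:**
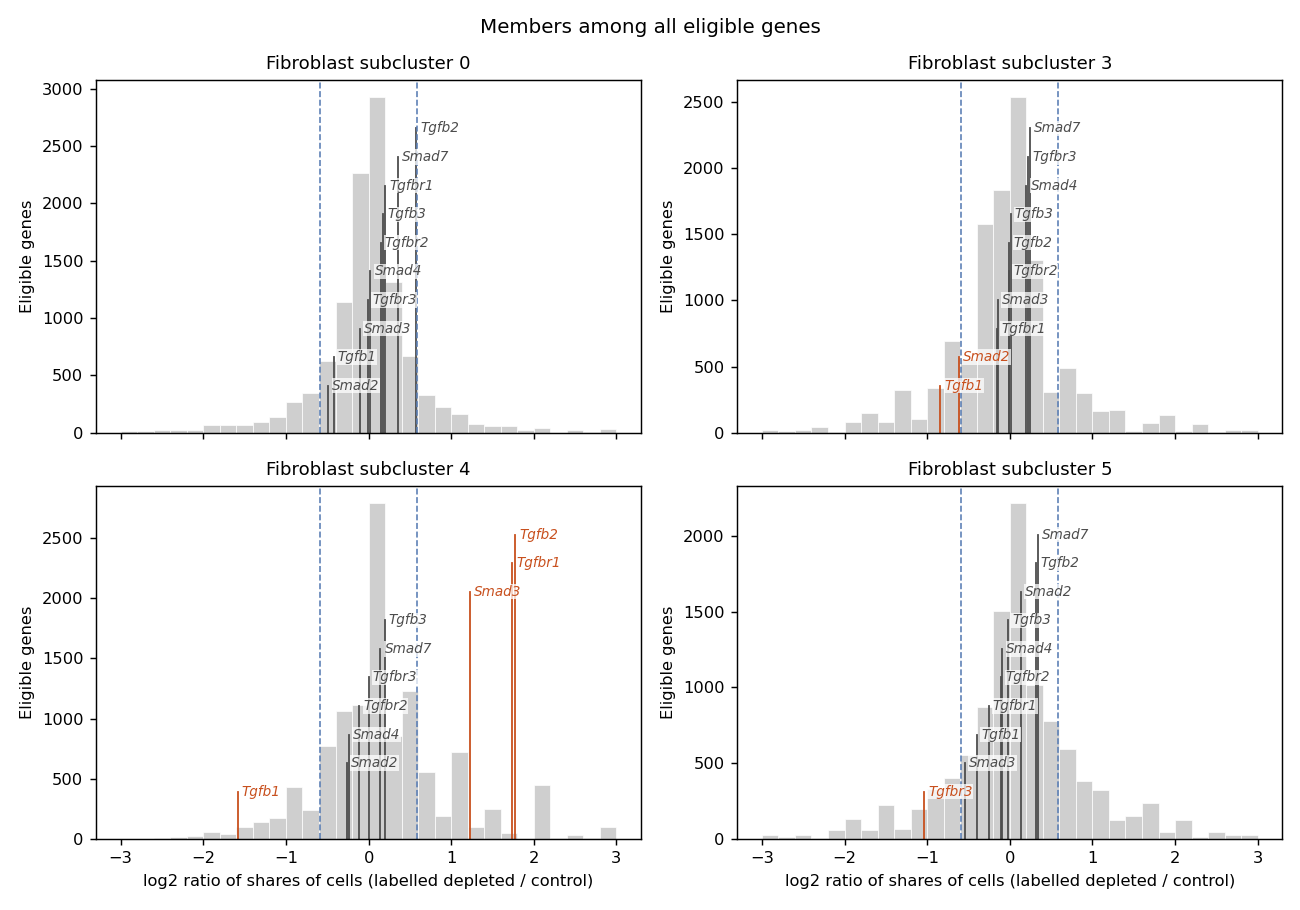
Number of eligible genes (y axis) by log2 ratio of shares, library labelled depleted over control (x axis, bins of 0.2, genes counted in both libraries, ratios beyond 3 placed in the end bins), in the 4 fibroblast subclusters, with each member marked at its own ratio; line heights only separate the names. Dashed lines mark 1.5-fold and orange names lie past it, 4 in subcluster 4, 2 in subcluster 3, 1 in subcluster 5 and none in subcluster 0.

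Leukocytes also make Tgfb1, and in these fibroblast subclusters most neutrophil and erythroid markers and part of the myeloid markers were counted in fewer cells of the library labelled depleted, while most T cell markers were counted in more. Lyz2, the lysozyme of myeloid cells, was counted in 89%, 80%, 90% and 82.6% of control cells in subclusters 0, 3, 4 and 5 and in 50%, 47.8%, 70% and 47.6% in the library labelled depleted. S100a9, one of the neutrophil markers read here, went from 91.7%, 96.7%, 85% and 91.3% to 53.1%, 52.2%, 60% and 38.1%. Of 28 values of the 7 macrophage or monocyte markers, 20 were lower, and the summed share per subcluster ran from 221.6 to 358.7 points in control cells and from 157.2 to 286.8 in the library labelled depleted. Within subcluster 3, 4 of these 7 markers were higher and their sum was 293.3 against 286.8, while all 5 neutrophil markers (240.1 against 126.1) and all 4 erythroid markers (106.6 against 12.9) were lower. The 5 neutrophil markers were lower in 18 of 20 values, with sums of 208.7 to 255.2 against 103.1 to 142.8, and the 4 erythroid markers in 16 of 16, with sums of 56.4 to 106.6 against 0.0 to 12.9. Ptprc, the pan-leukocyte surface protein CD45, did not move with them, at 35.2%, 30%, 32.5% and 13% against 34.4%, 30.4%, 30% and 23.8%, nor did Csf1r, which was lower in subcluster 0 and higher in the other 3. T cell markers were higher in 11 of 16 values, with sums of 28.2 to 40.1 in control cells and 31.2 to 86.8 in the library labelled depleted. Cardiomyocyte markers were lower in 12 of 16 values, and pericyte or smooth muscle markers higher in 9 of 16 and lower in 3. B cell markers were lower in 9 of 16 values and higher in 5, and endothelial markers lower and higher in 5 of 12 each. The part of these transcripts in the Tgfb1 difference was not tested.

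**Figure D3:**
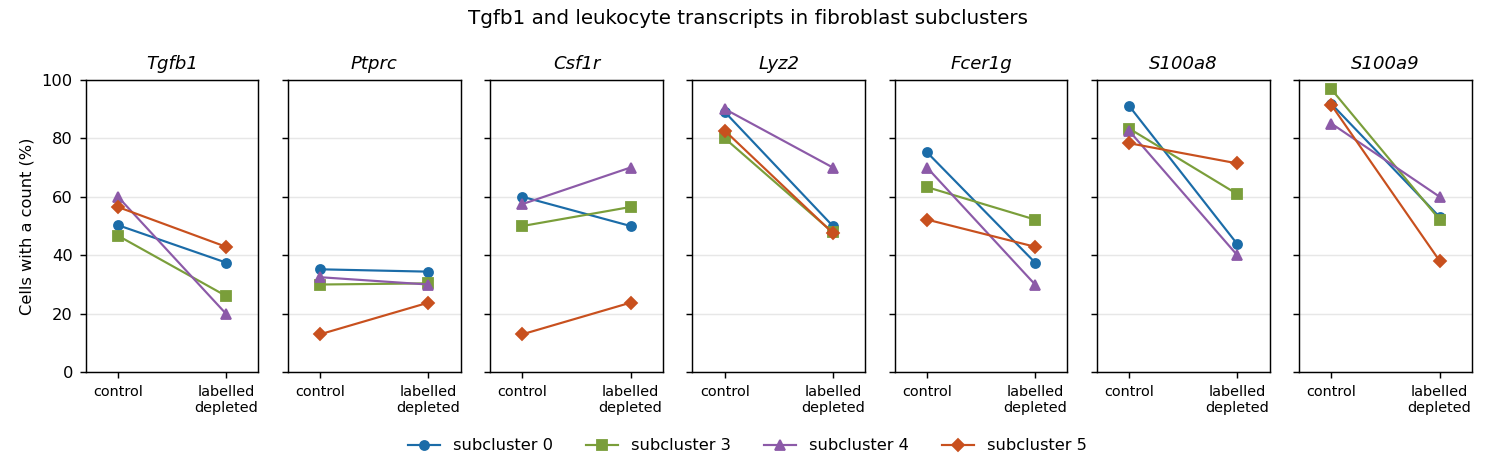
Share of cells with a count (y axis, percent) in the control library and in the library labelled depleted for Tgfb1, the leukocyte gene Ptprc, the myeloid genes Csf1r, Lyz2 and Fcer1g and the neutrophil genes S100a8 and S100a9 (panels); each line is a fibroblast subcluster. Tgfb1, Lyz2, Fcer1g, S100a8 and S100a9 go down on all 4 lines, while Ptprc stays within 2.5 points in subclusters 0, 3 and 4. Csf1r goes down in subcluster 0 and up in subclusters 3, 4 and 5.

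In the 18 cluster tables a gene is listed only past a log2 fold change of 0.25 and 25% of cells in either library, so an absent member has no value there. The members had 20 listings in 10 tables, and 8 tables listed none. By comparison, 42.2% of the 15059 genes were listed at least once. Of the 20, 7 shares were higher and 13 lower, against 49.9% lower over all 15431 listings, and at 1.5-fold there were 2 higher and 7 lower, against 22.6% and 27.6%. Tgfb3 and Smad3 were in no cluster table.

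Tgfb2 was the only member listed in cluster 5, the fibroblasts as a whole, and no other cluster listed it. Its share there was 32.9% in control cells and 60.4% in the library labelled depleted, a 1.84-fold difference at steps of 0.3 and 0.5 points. Of the 605 genes listed for cluster 5, 18.3% were called higher. The subclusters were made by the authors from this cluster's cells, so the cluster and subcluster values of Tgfb2 are not independent. The authors normalized the fibroblasts anew before splitting them, so shares of the cluster and of its subclusters rest on different corrected counts and their levels are not compared. Since the genotypes contributed unequally to subclusters, the share over the whole cluster also moves with its makeup, which cannot be told apart here from a difference within cells of a kind. Tgfb1, lower in the 4 subclusters analysed, was not listed for cluster 5.

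In macrophages and monocytes, 4 of the 5 clusters listed a member, with 3 shares higher and 7 lower, against 42.5% lower over all 2661 listings of the same 4 tables. None of the 10 was called higher and 2 were called lower, against 18.3% and 15.6% of those listings. Tgfb1 was counted in 82.3% of control cells and 78.1% of cells labelled depleted in cluster 3, in 77.8% and 64.6% in cluster 11, and in 78.1% and 70.9% in cluster 12. These were small differences of one direction, all under 1.5-fold. Tgfbr1 was lower in clusters 3 (59.6% to 45.4%) and 12 (66.7% to 54.4%). Tgfbr2 went in both directions, from 50.7% to 70.8% in cluster 0 and from 38.2% to 20.8% in cluster 11, where the share was called lower. Smad7 was called lower in cluster 0, at 38.6% of control cells and 19.1% in the library labelled depleted, while cluster 12 listed Tgfbr3 (26% to 35.4%) and Smad4 (38.5% to 50.6%) as higher.

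Among the immune tables, the largest fold differences of members were in natural killer and dendritic cells, whose tables were coarser. In natural killer cells (cluster 14), for which TGF-beta is a known brake on killing, Tgfb1 was counted in 43% of control cells and 15.4% of cells labelled depleted. Smad7 was at 36.7% and 15.4%, and Smad2 was higher, at 15.2% and 26.9%, with steps of 3.8 points in the library labelled depleted. All 3 were past 1.5-fold, as were 29.1% (lower) and 16.6% (higher) of the 970 genes of this table. In dendritic cells (cluster 17), 3 members were lower, namely Tgfb1 from 70% to 27.3%, Tgfbr1 from 30% to 9.1% and Smad4 from 60% to 18.2%, where the steps were 5.0 points in control cells and 9.0 in the library labelled depleted. Of the 1914 genes listed there, 46.5% were called lower and 25.4% higher. In T cells, cluster 4 alone of 4 clusters listed a member, Smad7, at 65.1% and 50.9%. The B cell table and both neutrophil tables listed none.

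Of the remaining tables, cluster 9, which is given no name here, listed Smad4 at 41.2% and 52.4%, with steps of 5.8 points in control cells. Cluster 15, mixed or unidentified in the study, listed Tgfb1 at 81.2% and 81.8%. Tgfb1 was therefore listed in 6 tables, 5 with a lower and 1 with a higher share, and 2.95% of all genes were listed in at least 6. Smad7 was lower in all 3 tables that listed it, from macrophages, T cells and natural killer cells.

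**Figure D4:**
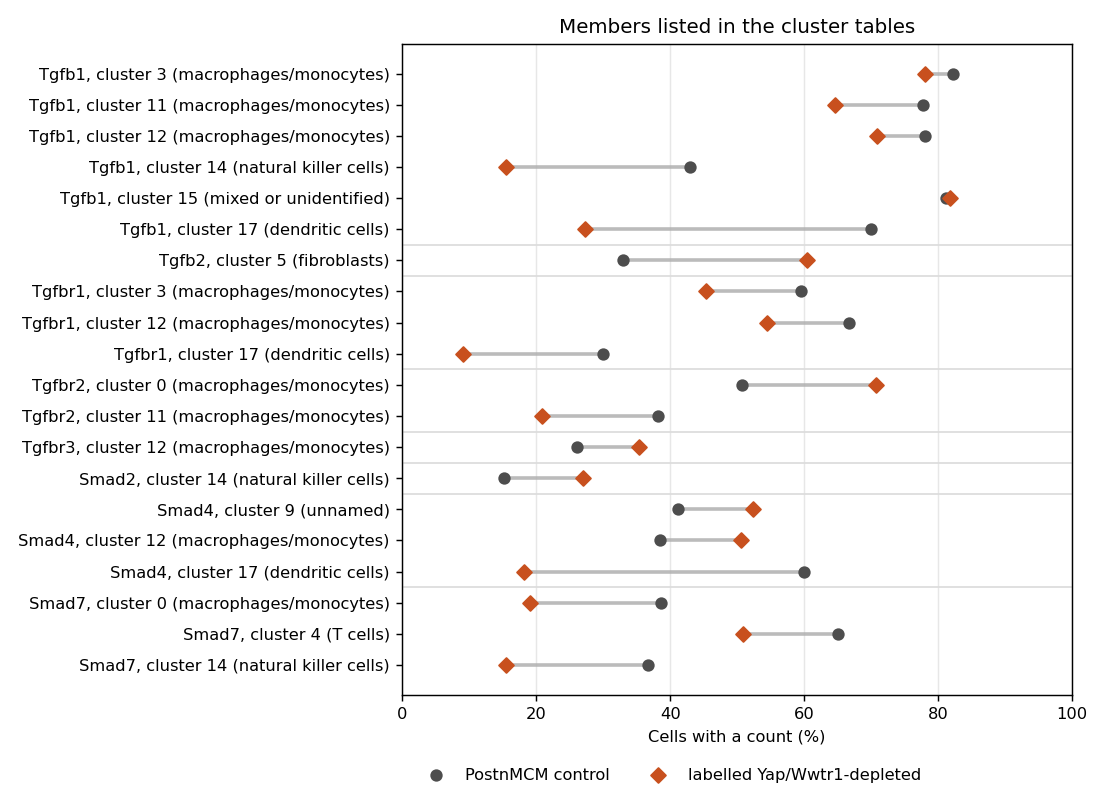
Share of cells with a count (x axis, percent) for each of the 20 listings of a member in the cluster tables (rows, by gene and cluster); circles are the PostnMCM control library and diamonds the library labelled depleted. Tgfb1 is lower in 5 of its 6 listings, most in natural killer cells and dendritic cells, and Tgfb2 appears for fibroblasts only.

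Other genes of the pathway were read from 5 lists, with the values of all 4 subclusters pooled. Over all eligible genes 17.1% of such values were called higher and 15.8% lower. The highest and lowest gene of a list is named by log2 ratio among eligible genes counted in both libraries. Among genes that store or free latent TGF-beta, 8 of 76 eligible values were called higher (10.5%) and 6 lower (7.89%), both below the background. Part of this list lay at the ceiling, with Itgb1 and Dcn at 100% in all 4 subclusters and both libraries, where a share cannot show a difference. The background was not matched for this, so the low counts do not show that these genes were stable. Ltbp2, a matrix protein related to the latent TGF-beta anchors, was the highest in subcluster 0 (11.7% of control cells, 25% in the library labelled depleted), and Ltbp1, an anchor of the latent complex, was the lowest in subcluster 3 (30% and 8.7%). Lrrc32, which tethers latent ligand to the cell surface, was the highest in subcluster 3 (10% and 21.7%) and subcluster 4 (7.5% and 20%). Nrros, its counterpart in myeloid cells, was the lowest in subcluster 0 (21.4% and 6.2%). Furin, the protease that cleaves the propeptide, was the lowest in subcluster 4 (60% and 40%). The integrin genes stood at both ends in subcluster 5, with Itgb8 at 4.3% and 19% and Itgb3 at 21.7% and 14.3%. Itgav, the alpha chain that pairs with both, was between 81% and 100% in all 4 subclusters and both libraries. The list medians of log2 ratio were 0.02, -0.02, 0.00 and 0.00 in subclusters 0, 3, 4 and 5.

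Among other receptors of the superfamily, 5 of 38 eligible values were called higher (13.2%) and 4 lower (10.5%), not above the background. Acvr2b, an activin type II receptor listed at 0 in control cells of subcluster 4 and at 20% in the library labelled depleted, has no ratio there. Acvrl1, the type I receptor ALK1, was the highest in subclusters 4 (32.5% and 50%) and 5 (47.8% and 85.7%). Acvr1b, an activin type I receptor, was the highest in subclusters 0 (24.1% and 31.2%) and 3 (13.3% and 30.4%). Acvr1, a BMP type I receptor, was the lowest in subclusters 3 (60% and 30.4%) and 4 (55% and 40%, where Acvr2a had the same ratio), and Acvr2a, another activin type II receptor, in subclusters 0 (21.4% and 12.5%) and 5 (34.8% and 14.3%). The list medians were 0.06, -0.19, -0.14 and 0.06. Of the BMP SMADs, 1 of 11 eligible values was called higher (9.09%), Smad9 in subcluster 5 (4.3% and 14.3%), and 1 lower, Smad9 in subcluster 3 (10% and listed at 0, so without a ratio). The background was 17.1% higher and 15.8% lower. Smad1 was the highest of this list in subclusters 0, 3 and 4, at 56.6% and 62.5%, 56.7% and 52.2%, and 40% and 50%. Among the eligible genes with a ratio, Smad5 was the lowest in subclusters 0 (60% and 65.6%), 3 (63.3% and 43.5%) and 5 (56.5% and 52.4%). In subcluster 4 the lowest was Smad9, with equal shares (10% and 10%). The list medians were 0.14, -0.33, 0.19 and 0.32, over 2 genes with a ratio in subclusters 0 and 3 and 3 genes in the others.

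Inhibitors and co-repressors had 10 of 60 values called higher (16.7%) and 5 lower (8.33%), near and below the background. The ubiquitin ligase genes were at both ends. Nedd4l, whose product targets activated SMADs, was the highest in subcluster 0 (19.3% and 31.2%) and the lowest in subcluster 4 (37.5% and 20%). Smurf1, which acts with SMAD7 on the receptor, was the highest in subcluster 4 (22.5% and 50%). Wwp2 was the highest and Wwp1 the lowest in subcluster 3, at 20% and 39.1% and at 76.7% and 43.5%. Smad6, the inhibitory SMAD of the BMP branch, was the highest in subcluster 5 (30.4% and 47.6%, the same shares as Wwp2). The homeobox co-repressor Tgif1 was the lowest in subcluster 0 (33.8% and 25%) and Tgif2 in subcluster 5 (13% and 9.5%). The list medians were 0.15, -0.09, 0.06 and 0.00.

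The 28 response genes had 6 of 105 eligible values called higher (5.71%) and 19 lower (18.1%), with the lower calls near the background of 15.8% and the higher calls below that of 17.1%. The median log2 ratio was 0.00 in each subcluster. Cnn1 in subcluster 3 (16.7%) and Sphk1 in subcluster 4 (17.5%) were listed at 0 in the library labelled depleted and have no ratio there, though both were called lower. Several of them, among them Col1a1, Col1a2, Col3a1, Fn1 and Tpm1, were at 100% in all 4 subclusters and both libraries, where a share cannot show a difference. Acta2, the smooth muscle actin of myofibroblasts, was the highest in subclusters 0 (31% and 59.4%) and 3 (53.3% and 78.3%). Postn, the matrix protein gene that also drives Cre here, had the highest ratio in subcluster 4 (10% and 20%) and the lowest in subcluster 3 (40% and 13%). The cell cycle inhibitor Cdkn2b was the highest in subcluster 5 (13% and 33.3%), and the cartilage matrix gene Comp the lowest there (17.4% and 4.8%, the same shares as the cytokine gene Il11). Cthrc1, a secreted collagen triple helix protein of activated fibroblasts, had the lowest ratio in subcluster 4 (70% and 10%), and Id2, an inhibitor of basic helix-loop-helix factors, in subcluster 0 (52.4% and 25%). In the table of cluster 5, the fibroblasts as a whole, 605 genes were listed, 14 of them from the 5 lists, which hold 20, 11, 3, 15 and 28 genes. Id1 (45.6% and 26.2%), Id2 (27.2% and 15%) and Cthrc1 (37.9% and 20.3%) were lower there, and Tgfbi (15.8% and 33.2%) and Acta2 (21.8% and 40.1%) were higher, all 5 past 1.5-fold and named for that after their values were seen. Of the 605 genes of this table, 13.9% were called lower and 18.3% higher.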

How the data were processed

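Gene expression was compared between 1 PostnMCM control library and 1 library labelled Yap/Wwtr1-depleted. The authors aligned reads with Cell Ranger 6.1.1 to GRCm39, normalized counts with SCTransform in Seurat, clustered the cells, repeated these steps on the fibroblast cluster alone to obtain subclusters, and deposited, for each of 18 clusters and 4 fibroblast subclusters, the fraction of cells of each library with a corrected count above 0. The same tables hold the authors' own comparison (an average log2 fold change, a p-value and an adjusted p-value computed over cells), which was not used. Other clusters and subclusters were not analysed here. Fractions were read as percent in Python 3.11.15 with pandas 2.3.3, and the log2 ratio of the shares was taken with no pseudocount. A gene was eligible at 10% in either library and called at 1.5-fold, and the same count over all eligible genes or listings gave the background. The calling step was checked on control shares into which 2-fold changes were put without sampling noise. That check covers the arithmetic of the call and not the error of a share. The members and gene lists were chosen with earlier results of these data known. All members are named, and of each pathway list the genes with the highest and the lowest log2 ratio in each subcluster, together with Yap1, Wwtr1 and Postn. Itgb6 and Bmpr1b were in no subcluster table. Marker genes of other cell types were read in the same way, and of these Trac and Tie1 were in no subcluster table.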

Additional observations from a re-analysis of the deposited data

Results flagged for a closer look

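No member was picked out here. In the other pathway lists, several genes were at least 1.5-fold higher in 1 fibroblast subcluster and at least 1.5-fold lower in another, and the difference between the subclusters was not tested. The share of all eligible genes with calls in both directions was not counted. In a single subcluster, 10.3% to 23.3% of eligible genes were called higher and 11.1% to 18.3% lower, so these genes are not shown to be unusual. Several of these values rest on a low share in 1 library, such as Nrros and Itgb8 in control cells of subcluster 5, where 4.3% is a single step, and genes this low were included only through the other library. Among the genes that store or free latent ligand, the log2 ratio of Nrros was 1.73 in subcluster 5 and -1.79 in subcluster 0, a difference of 3.52, that of Itgb8 was 2.14 in subcluster 5 and -0.81 in subcluster 3, a difference of 2.95, and that of Itgb3 differed by 1.19 between subclusters 4 and 5. Of the ubiquitin ligases, Smurf1 differed by 1.94 between subclusters 4 (1.15) and 3 (-0.79) and Nedd4l by 1.6 between subclusters 0 (0.69) and 4 (-0.91). Of the response genes, Postn differed by 2.62 between subclusters 4 (1.0) and 3 (-1.62), Cdkn2b by 1.98 between subclusters 5 (1.36) and 0 (-0.63), the YAP target Ccn2 by 1.94 between subclusters 0 (0.90) and 3 (-1.04), and the contractile gene Tagln by 1.21 between subclusters 0 (0.63) and 4.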

How the results depend on the processing

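No paired analysis was possible because there was only 1 library of each genotype. The 3 higher calls of members in the subclusters came to 7 at a log2 ratio of 0.32 in size, to 9 at a difference of 10 points and to 0 without subcluster 4. The 4 lower calls came to 2 at 2-fold, 8 at a log2 ratio of 0.32 in size, 11 at 10 points and 2 without subcluster 3. In the cluster tables the 2 higher calls came to 0 at 2-fold, 7 at any size and 5 at 10 points, and the 7 lower calls to 13 at any size and 11 at 10 points. The 65 calls over the pathway lists came to 29 at 2-fold and to 45 at a least share of 25%. Each of these follows from the size or least share asked for or from the subcluster left out. A least share of 25% in the subclusters gave 3 and 4 calls of members, as did no least share. Centring on the median of all eligible genes counted in both libraries changed the sign of 0 called member values and carried 1 of 40 past 1.5-fold, Smad3 in subcluster 5. At 1.1-fold in all 4 subclusters, an alternative chosen after seeing the data, 1 member (Tgfb1) was lower and 1 (Smad7) higher, as at any size. The steps between deposited shares limit every value, most in subcluster 4 and in dendritic cells.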
